A study of Mus musculus with 16 samples.

Results

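The collagen chain genes are the genes whose symbols read Col, a number, the letter a and a number, each coding 1 alpha chain of a collagen. The probe-to-gene table of the array named 42 such genes among the 17097 genes measured, through 68 probe sets, and 21 of the 42 had more than 1 probe set. Where a gene had several, the brightest probe set by mean over the 16 arrays stood for it, a choice that uses no group. By the kind of assembly they build, 11 were fibrillar chains, 6 were chains of basement membrane collagen, 5 belonged to the beaded filament collagen VI, 9 to the fibril-associated collagens, 3 to short-chain networks, 2 to the multiplexins, 4 to transmembrane collagens and 1 to the anchoring fibrils, and Col26a1 stood alone.

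Collagens are the main structural proteins of connective tissue. Alpha chains wind around each other into a helix, are trimmed outside the cell, and assemble into fibrils, sheets or filaments that lysyl oxidase then cross-links. In fat, fibroblasts and their progenitors make most fibrillar collagen, endothelial cells, pericytes and adipocytes lay down basement membrane collagen IV around themselves, and collagen VI is abundant around adipocytes and is known for its increase in fibrotic obese fat. Macrophages are known more for taking up and degrading collagen than for making it.

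Arrays carried RNA from pools of macrophages isolated from fat of mice aged 19 to 21 weeks, with 4 pools in each of 4 groups and 2 pools of every group on each of 2 days. All mice carried floxed Sucnr1 alleles (Sucnr1 encodes a receptor for succinate). The mice called WT carried these alleles alone, and those called KO-LysM also lacked Sucnr1 where the lysozyme M promoter is active, that is in myeloid cells. SAT is subcutaneous and VAT visceral adipose tissue. One label names CD11b beads for the selection and another a surface antigen of macrophages, RNA came from 300000 cells and went through 24 cycles of cDNA amplification, the titles call the WT samples untreated and the others treated with KO-LysM, which is here read as the genotype that another label gives, and the letters NCD that stand in the labels were not spelled out there and were not used. How many mice made a pool, and whether pools shared mice, is not given in the labels, so p-values measure the spread between pools.

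Several features of the arrays bear on every collagen value. Sucnr1 lay below background in all 4 groups (group means 3.52 to 3.55), so it could not check the genotype labels. Background was set at a log2 value of 4.78, the 95th percentile of the means of 41 olfactory receptor genes, which are not expected in these cells. The 10 macrophage markers were above it in every group, with a mean log2 value per array of 8.63 to 9.03 in WT SAT, 7.94 to 9.01 in WT VAT, 8.41 to 8.96 in KO-LysM SAT and 7.74 to 8.42 in KO-LysM VAT. Tissue markers went against the depot labels of one genotype. The 6 skeletal muscle genes were all lower in WT VAT than in WT SAT, whereas 5 of 6 were higher in KO-LysM VAT than in KO-LysM SAT (limma, adjusted p under 0.05). The 6 seminal vesicle genes averaged 9.62 to 10.35 on the arrays labelled KO-LysM SAT and at most 5.87 on any other array. Of the genes of subcutaneous position 3 of 4 were higher in KO-LysM VAT than in KO-LysM SAT, against 0 of 4 called and a median change of −0.38 for WT VAT minus WT SAT (2 of 4 at an unadjusted p under 0.05). The groups are therefore named as labelled throughout, and comparisons across the labels (KO-LysM VAT with WT SAT, KO-LysM SAT with WT VAT) are given after the labelled ones. The arrays also differed in spread: the interquartile range of an array was 2.36 to 2.63 log2 units on the arrays labelled KO-LysM, 2.12 to 2.29 in WT SAT, 2.01 and 2.15 in WT VAT pools 1 and 2 (day 1), and 2.50 and 2.54 in WT VAT pools 3 and 4 (day 2).

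Of the 42 chains, 20 had group means above background in all 4 groups, 8 in 1 to 3 groups and 14 in none. Among those above background throughout were the fibrillar chains Col1a1, Col3a1, Col5a1, Col5a2 and Col5a3, the basement membrane chains Col4a1 and Col4a2 and the 3 classical collagen VI chains. Beside them, 9 of 10 fibroblast and stromal progenitor markers were above background in WT SAT, WT VAT and KO-LysM VAT and 7 of 10 in KO-LysM SAT; the mean of this list was 6.09 to 6.43 on the WT SAT arrays, 6.52 to 7.03 in WT VAT, 6.56 to 6.87 in KO-LysM SAT and 6.81 to 6.90 in KO-LysM VAT. In RNA from a whole fraction, more cells of a type and more RNA per cell cannot be told apart, and the part of stromal or endothelial cells in the collagen values was not tested.

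**Figure D1:**
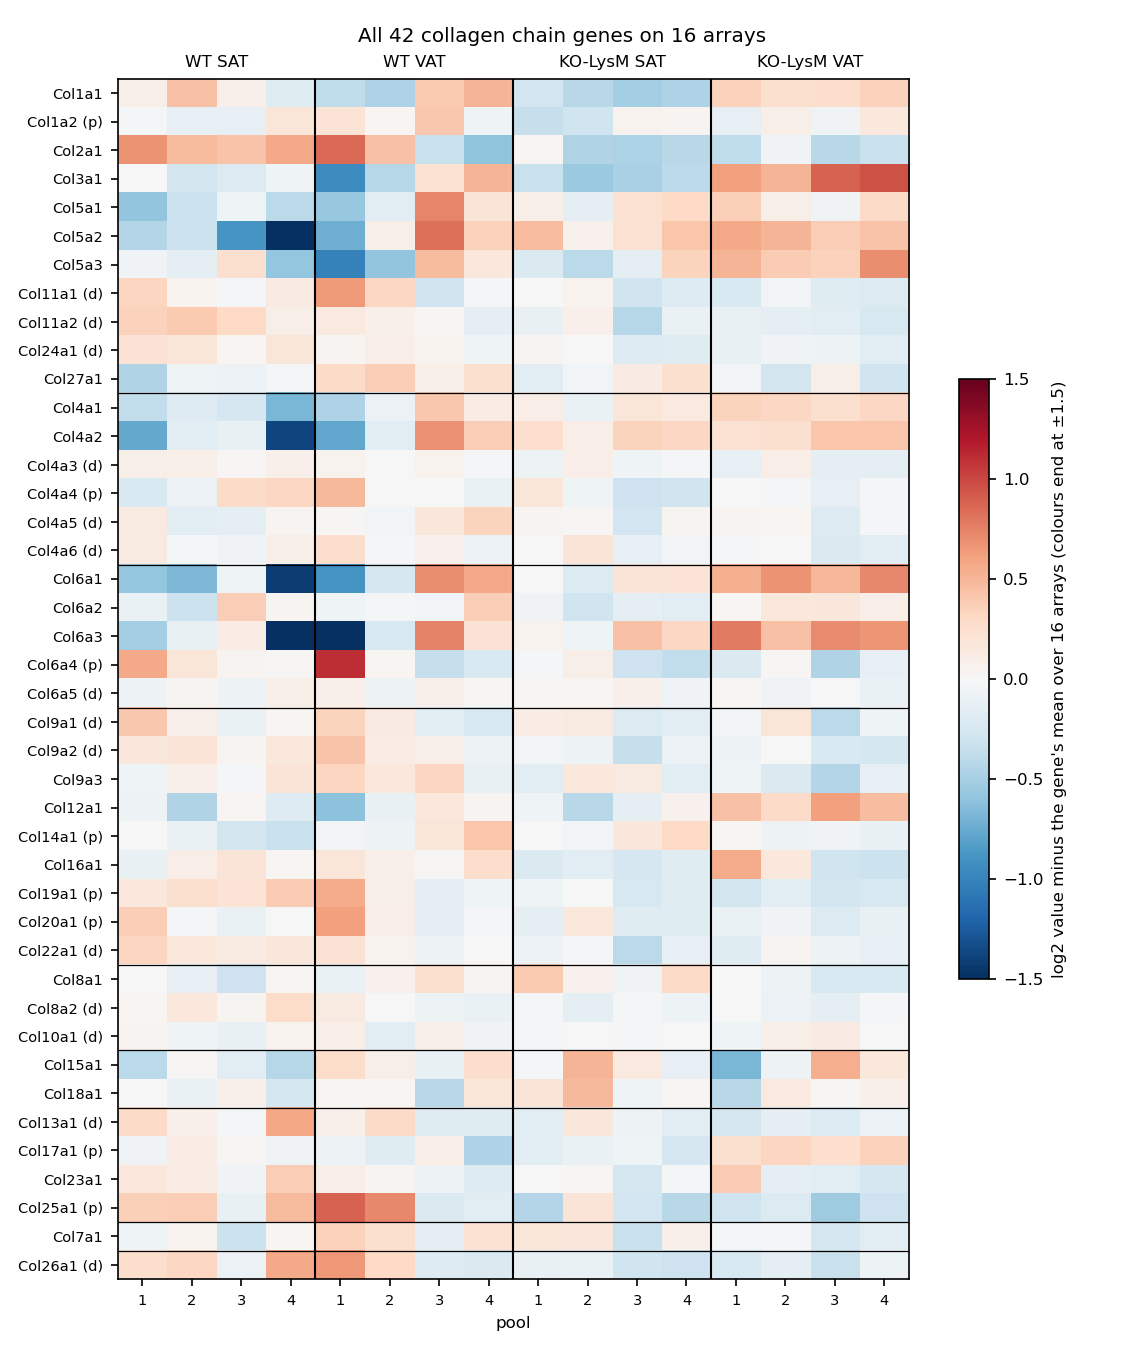
Colour gives the log2 value of each of the 42 collagen chain genes (rows, grouped by assembly) on each of the 16 arrays (columns, pools 1 to 4 of each group; pools 1 and 2 are day 1) minus that gene's mean over the arrays; (d) marks genes below background in all groups and (p) genes above it in 1 to 3. Among the collagens above background, WT SAT pool 4 and WT VAT pool 1 were low for Col4a2, Col5a2, Col6a1 and Col6a3, and the KO-LysM VAT arrays were high for Col3a1.

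The fibrillar chains come first. Col1a1, the alpha-1 chain of collagen I, the main fibril of connective tissue, had log2 values of 9.996, 10.35, 9.98 and 9.72 in WT SAT pools 1 to 4 and 9.52, 9.44, 10.30 and 10.41 for WT VAT. The KO-LysM SAT pools had 9.62, 9.49, 9.39 and 9.44, and KO-LysM VAT gave 10.25, 10.14, 10.17 and 10.25. The WT VAT pools therefore split by day, the day 1 pools lying among the KO-LysM SAT arrays and the day 2 pools above the KO-LysM VAT arrays. Col1a2, its partner in the collagen I trimer, was represented by 1 probe set near background: 4.79, 4.67, 4.67 and 4.98 in WT SAT and 5.00, 4.83, 5.20 and 4.74 for WT VAT. KO-LysM SAT followed with 4.45, 4.50, 4.85 and 4.84, and KO-LysM VAT with 4.68, 4.88, 4.75 and 4.95. The 4 groups overlapped, and this probe set gives little information on Col1a2.

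Col3a1 codes the chain of collagen III, which forms fine fibrils together with collagen I. Its values were 9.20, 8.91, 8.99 and 9.12 in WT SAT and 8.25, 8.76, 9.42 and 9.70 for WT VAT. The KO-LysM arrays gave 8.85, 8.63, 8.71 and 8.80 under the SAT label and 9.81, 9.69, 10.07 and 10.14 under the VAT label. The KO-LysM VAT arrays lay above all arrays of the other groups except WT VAT pool 4, which exceeded the lowest of them. A second Col3a1 probe set lay far below background (mean 3.39) and changed by at most 0.07 in size in the 4 comparisons between groups of 1 genotype or 1 depot.

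The 3 chains of collagen V, which starts and limits the growth of collagen I fibrils, were above background in all groups. Col5a1 had values of 7.33, 7.60, 7.86 and 7.52 in WT SAT and 7.35, 7.76, 8.65 and 8.12 for WT VAT. In KO-LysM mice the SAT pools had 8.01, 7.79, 8.15 and 8.21 and the VAT pools 8.28, 8.00, 7.86 and 8.20. Col5a2 had values of 8.20, 8.31, 7.75 and 6.72 in WT SAT and 7.91, 8.72, 9.47 and 8.98 for WT VAT. The KO-LysM SAT pools had 9.10, 8.70, 8.87 and 9.05, and KO-LysM VAT gave 9.20, 9.15, 9.0002 and 9.06. For Col5a2 the WT SAT arrays were below all arrays labelled KO-LysM, WT SAT pool 4 by the widest margin. Col5a3 had values of 7.65, 7.56, 7.93 and 7.12 in WT SAT and 6.69, 7.11, 8.17 and 7.86 for WT VAT. KO-LysM SAT followed with 7.48, 7.30, 7.56 and 8.03, and KO-LysM VAT with 8.21, 8.08, 8.04 and 8.39. Here the KO-LysM VAT arrays lay just above those of KO-LysM SAT and WT SAT, and WT VAT again split by day.

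Col2a1, best known as the fibril chain of cartilage, was highest on WT SAT arrays and on the day 1 arrays of WT VAT: 6.82, 6.61, 6.57 and 6.72 in WT SAT and 6.99, 6.58, 5.81 and 5.54 for WT VAT. The KO-LysM arrays gave 6.18, 5.69, 5.67 and 5.73 under the SAT label and 5.76, 6.09, 5.73 and 5.80 under the VAT label. Of 4 cartilage markers, Acan, Matn3 and Comp were below background in every group and Sox9 was above it in every group. Col27a1, a fibrillar chain of cartilage and other tissues, had values of 4.65, 5.04, 5.01 and 5.08 in WT SAT and 5.39, 5.47, 5.18 and 5.34 for WT VAT. In KO-LysM mice the SAT pools had 4.93, 5.05, 5.22 and 5.34 and the VAT pools 5.06, 4.83, 5.19 and 4.80. The other 3 fibrillar chains lay below background in all groups. Col11a1, a cartilage fibril chain, averaged 4.43 ± 0.15, 4.47 ± 0.41, 4.20 ± 0.17 and 4.14 ± 0.08 (SD, n = 4; here and below in the order WT SAT, WT VAT, KO-LysM SAT, KO-LysM VAT). Its partner Col11a2 averaged 4.71 ± 0.14, 4.45 ± 0.13, 4.29 ± 0.21 and 4.27 ± 0.06, and Col24a1 averaged 3.78 ± 0.08, 3.67 ± 0.07, 3.55 ± 0.12 and 3.53 ± 0.05. These 3 chains had higher means in WT SAT than in either group labelled KO-LysM, at levels where the array does not tell expression from background.

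Among the basement membrane chains, Col4a1 and Col4a2, which together form the collagen IV found under most endothelia and around adipocytes, were the ones above background in all groups. Col4a1 had values of 10.13, 10.30, 10.25 and 9.81 in WT SAT and 10.04, 10.41, 10.90 and 10.61 for WT VAT. The KO-LysM SAT pools had 10.59, 10.40, 10.68 and 10.65, and KO-LysM VAT gave 10.83, 10.81, 10.74 and 10.81. Col4a2 had values of 8.04, 8.65, 8.69 and 7.43 in WT SAT and 8.03, 8.63, 9.50 and 9.18 for WT VAT. KO-LysM SAT followed with 9.06, 8.91, 9.15 and 9.11, and KO-LysM VAT with 9.04, 9.05, 9.23 and 9.22. For both genes WT SAT lay below both groups labelled KO-LysM without overlap, and WT VAT spanned the range of the other groups, low on day 1 and high on day 2.

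Both genes lie head to head on chromosome 8 and are read from a shared region, which is shown here because both were lower in WT SAT than in both groups labelled KO-LysM. In the RefSeq table of promoters (GRCm38.p6) a start of Col4a1 (minus strand) and that of Col4a2 (plus strand) are 21 bases apart. By these starts their first transcribed bases overlap in the 22 bases at chr8:11312805-11312826. The RefSeq gene record of Col4a1 begins further on, at base 11312889, which makes the overlap longer. The 22 bases are given on the plus strand with the letters of a GC box, GGGCGG, in capitals.
Col4a1 and Col4a2 shared start: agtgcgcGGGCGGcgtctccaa

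The tissue-restricted chains of collagen IV were dim. Col4a3, known from the kidney filter, averaged 4.36 ± 0.03, 4.30 ± 0.04, 4.27 ± 0.08 and 4.21 ± 0.12. Col4a4, which joins it in one trimer, averaged 4.82 ± 0.27, 4.85 ± 0.26, 4.63 ± 0.23 and 4.71 ± 0.05, above background in both WT groups and below it in both groups labelled KO-LysM. Col4a5 averaged 4.06 ± 0.14, 4.21 ± 0.17, 4.05 ± 0.16 and 4.06 ± 0.12. This chain and Col4a6, at 4.27 ± 0.09, 4.29 ± 0.15, 4.24 ± 0.14 and 4.14 ± 0.11, stayed below background in all groups.

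Collagen VI is a beaded filament of 3 chains, and these were above background in all groups. Col6a1 had values of 6.59, 6.49, 7.11 and 5.75 in WT SAT and 6.27, 6.92, 7.86 and 7.73 for WT VAT. The KO-LysM arrays gave 7.17, 6.96, 7.37 and 7.37 under the SAT label and 7.71, 7.85, 7.66 and 7.89 under the VAT label. Col6a2 had values of 6.63, 6.40, 7.09 and 6.76 in WT SAT and 6.66, 6.70, 6.68 and 7.09 for WT VAT. In KO-LysM mice the SAT pools had 6.67, 6.42, 6.58 and 6.55 and the VAT pools 6.74, 6.88, 6.89 and 6.82. Col6a3 had values of 6.70, 7.10, 7.31 and 5.64 in WT SAT and 5.23, 6.96, 7.96 and 7.43 for WT VAT. On the arrays labelled KO-LysM SAT the values were 7.26, 7.14, 7.65 and 7.51, and KO-LysM VAT gave 7.99, 7.64, 7.91 and 7.87. Col6a1 and Col6a3 shared their low arrays, WT SAT pool 4 and WT VAT pool 1, whereas Col6a2 stood at 6.76 and 6.66 there, within the range of the other arrays. The chains that can replace Col6a3 were near or below background: Col6a4 averaged 5.05 ± 0.25, 4.99 ± 0.66, 4.69 ± 0.22 and 4.66 ± 0.20, and Col6a5 averaged 3.69 ± 0.08, 3.72 ± 0.07, 3.71 ± 0.05 and 3.66 ± 0.05.

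**Figure D2:**
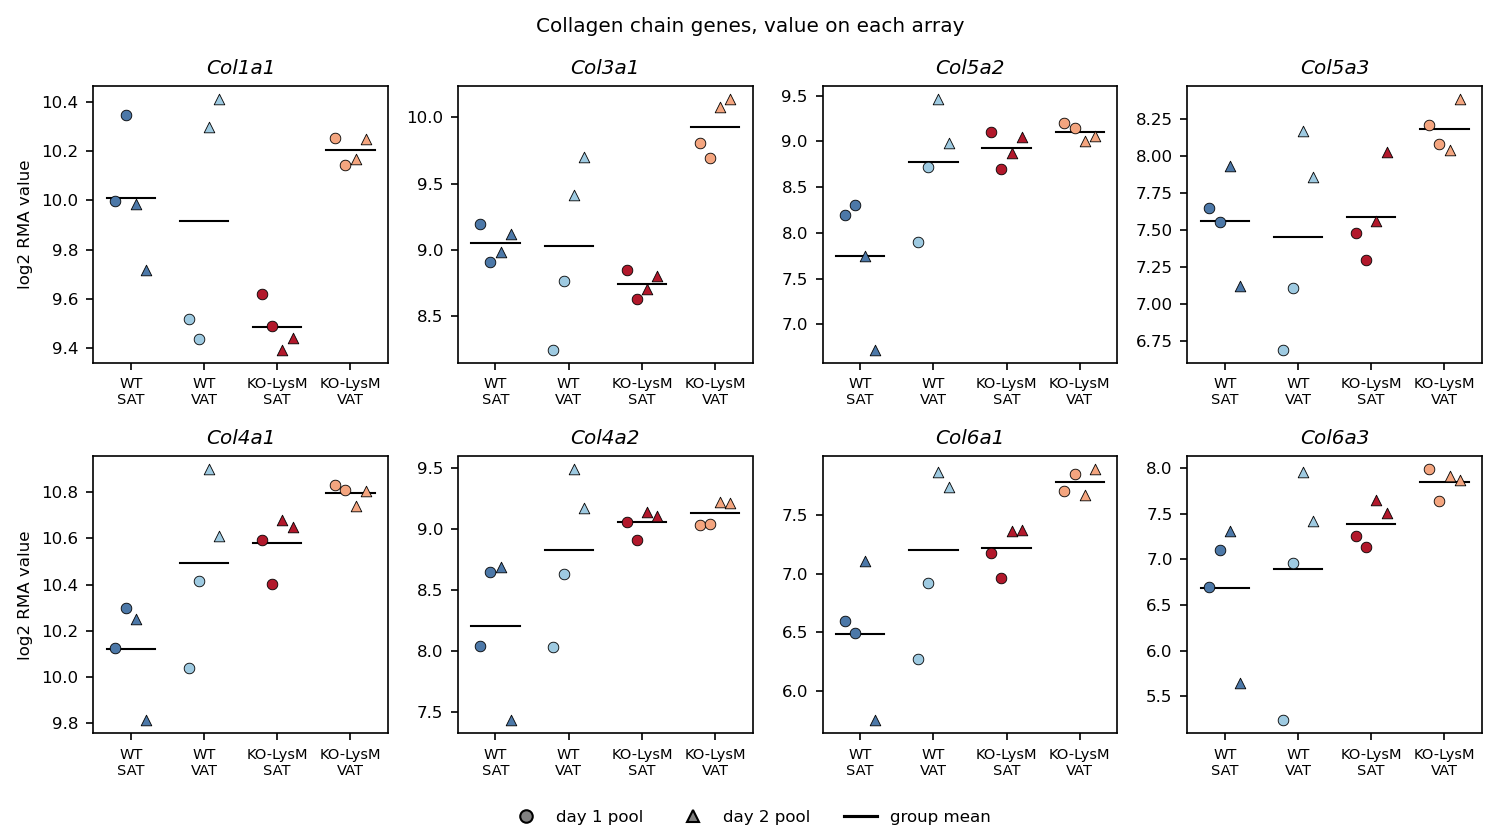
Each panel plots the log2 value (y axis) of 1 collagen chain gene on every array, with circles for day 1 pools, triangles for day 2 pools and a line at the mean of the 4 pools of a group; the y axes differ and do not start at 0. Col3a1 was highest in KO-LysM VAT and Col1a1 lowest in KO-LysM SAT by group mean, and in the WT VAT column the day 2 pools lie above the day 1 pools in each of the 8 panels.

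The fibril-associated collagens bind along fibrils without forming any of their own. Col12a1, found on collagen I fibrils of dense connective tissue, had values of 5.78, 5.40, 5.89 and 5.67 in WT SAT and 5.25, 5.74, 6.01 and 5.90 for WT VAT. KO-LysM SAT followed with 5.79, 5.45, 5.71 and 5.92, and KO-LysM VAT with 6.29, 6.14, 6.47 and 6.32. Its KO-LysM VAT arrays lay above every other array. Col9a3, a cartilage collagen IX chain, had values of 5.96, 6.10, 6.003 and 6.22 in WT SAT and 6.35, 6.19, 6.34 and 5.91 for WT VAT. The KO-LysM arrays gave 5.86, 6.19, 6.16 and 5.87 under the SAT label and 5.96, 5.81, 5.58 and 5.90 under the VAT label. Col16a1, a fibril-associated chain, averaged 6.12 ± 0.13, 6.21 ± 0.11, 5.87 ± 0.04 and 6.09 ± 0.42. Those 3 were above background in every group. Col14a1, Col19a1 and Col20a1 were above it in 2 groups each, and the other 3 in none. Col19a1 had values of 4.82, 4.91, 4.87 and 5.05 in WT SAT and 5.22, 4.76, 4.53 and 4.60 for WT VAT. In KO-LysM mice the SAT pools had 4.60, 4.66, 4.43 and 4.49 and the VAT pools 4.40, 4.50, 4.39 and 4.43. Col14a1, a relative of Col12a1, averaged 4.56 ± 0.15, 4.86 ± 0.23, 4.84 ± 0.15 and 4.69 ± 0.06, and Col20a1 averaged 4.85 ± 0.21, 4.93 ± 0.33, 4.71 ± 0.17 and 4.68 ± 0.06. Below background in all groups were Col9a1 (4.20 ± 0.21, 4.11 ± 0.27, 4.06 ± 0.18 and 4.01 ± 0.24), its partner Col9a2 (4.17 ± 0.07, 4.17 ± 0.21, 3.89 ± 0.14 and 3.89 ± 0.13) and Col22a1, a collagen of tissue junctions such as that of muscle and tendon (4.63 ± 0.09, 4.48 ± 0.13, 4.27 ± 0.16 and 4.34 ± 0.10).

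The remaining classes held 5 chains above background in all groups. Col8a1, a short-chain collagen of vessel walls, averaged 7.31 ± 0.15, 7.47 ± 0.14, 7.58 ± 0.21 and 7.27 ± 0.11, while its partner Col8a2 (3.97 ± 0.12, 3.83 ± 0.11, 3.77 ± 0.06 and 3.78 ± 0.07) and Col10a1, the chain of growth plate cartilage (4.66 ± 0.08, 4.67 ± 0.12, 4.66 ± 0.01 and 4.71 ± 0.09), were below background throughout. The multiplexins sit in basement membranes: Col15a1 averaged 6.44 ± 0.21, 6.81 ± 0.18, 6.81 ± 0.28 and 6.66 ± 0.51, and Col18a1, the source of endostatin, averaged 6.43 ± 0.14, 6.46 ± 0.26, 6.66 ± 0.24 and 6.46 ± 0.25. Col7a1, which anchors basement membrane to dermis, averaged 5.45 ± 0.17, 5.69 ± 0.22, 5.55 ± 0.24 and 5.41 ± 0.11. These 4 genes showed group means within 0.37 of each other.

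Of the transmembrane collagens, Col23a1 was above background in all groups, at 5.10 ± 0.17, 4.92 ± 0.13, 4.89 ± 0.13 and 4.90 ± 0.29. Col17a1, which belongs to the hemidesmosomes of basal keratinocytes, had values of 4.67, 4.82, 4.73 and 4.67 in WT SAT and 4.64, 4.53, 4.81 and 4.26 for WT VAT. On the arrays labelled KO-LysM SAT the values were 4.56, 4.62, 4.65 and 4.46, and KO-LysM VAT gave 4.96, 5.03, 4.96 and 5.06. Its KO-LysM VAT arrays lay above every other array, and the mean of the 4 keratinocyte markers did too, at 6.37 to 7.30 against at most 5.77 elsewhere. Col25a1, a collagen made mainly by neurons, had values of 5.45, 5.46, 4.99 and 5.57 in WT SAT and 5.97, 5.81, 4.87 and 4.92 for WT VAT. KO-LysM SAT followed with 4.66, 5.28, 4.81 and 4.67, and KO-LysM VAT with 4.80, 4.88, 4.57 and 4.79. Col13a1, a collagen of cell adhesions and the neuromuscular junction, averaged 4.75 ± 0.26, 4.51 ± 0.23, 4.46 ± 0.16 and 4.35 ± 0.07, and Col26a1 averaged 4.37 ± 0.27, 4.24 ± 0.42, 3.90 ± 0.11 and 3.91 ± 0.11, both below background in all groups.

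The first comparison set KO-LysM SAT against WT SAT. Because tissue markers went against the KO-LysM depot labels, a difference by genotype cannot be told apart here from a difference by depot. On the arrays labelled KO-LysM SAT, the collagen V chain Col5a2 and the collagen IV chains Col4a1 and Col4a2 were higher than in WT SAT, and Col1a1 and Col2a1 were lower. Of the 42 chains 3 rose, against 16.7% of all genes, and 9 fell, against 20.0% of all genes, by limma's moderated test with day as a term (Benjamini-Hochberg adjusted p under 0.05, two-sided). The share of either direction over all genes was 36.7%, the median change of the 42 was −0.13 and that of all genes −0.05. A rise in 3 of 42 chains is a smaller share than in all genes, and the share that fell was close to it.

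The rises were in Col5a2, by 1.19 ± 0.32 (log2 change ± SE; 2.28-fold; adjusted p = 0.0140), Col4a2, by 0.85 ± 0.27 (adjusted p = 0.0268), and Col4a1, by 0.46 ± 0.15 (adjusted p = 0.0260). In each of these the 4 WT SAT arrays lay below the 4 KO-LysM SAT arrays. The second Col4a1 probe set changed by 0.58 ± 0.22 and the second, dim Col5a2 probe set by 0.56 ± 0.12. Col6a1 and Col6a3 changed by similar sizes without passing, by 0.73 ± 0.28 (adjusted p = 0.0540) and 0.70 ± 0.43 (adjusted p = 0.198), and the change of Col6a2 was −0.17 ± 0.12 (adjusted p = 0.252). The 2 other probe sets of Col8a1, at means of 4.92 and 5.49, changed by 1.29 ± 0.18 and 1.51 ± 0.25, whereas the brighter one that stands for the gene changed by 0.28 ± 0.11.

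Among the falls, Col2a1 fell by 0.86 ± 0.19 on the log2 scale (adjusted p = 0.00596) and Col1a1 fell by 0.53 ± 0.19 (adjusted p = 0.0428), in both without overlap of the arrays. Col3a1 changed by −0.31 ± 0.19 (adjusted p = 0.205) and Col1a2 by −0.12 ± 0.11 (adjusted p = 0.403). The other 7 falls were in chains near or below background: Col25a1 (−0.51 ± 0.18, adjusted p = 0.0431), Col26a1 (−0.47 ± 0.15, 0.0282), Col11a2 (−0.42 ± 0.09, 0.00359), Col19a1 (−0.37 ± 0.11, 0.0219), Col22a1 (−0.36 ± 0.08, 0.00692), Col9a2 (−0.28 ± 0.08, 0.0211) and Col24a1 (−0.23 ± 0.07, 0.0174). For Col22a1, Col24a1, Col26a1 and Col9a2 no array of either group was above background. No KO-LysM SAT array was above it for Col11a2 or Col19a1 either. The fall of Col19a1 is thus bounded as at least 1.1-fold, and that of Col11a2 leaves no fold. Of the 5356 genes of the array below background in all groups, 22.6% were called lower in this comparison, with a median change of −0.15. Among the 14 chains below background throughout, 5 were called lower, and the mean over the 14 was 4.29 ± 0.09 in WT SAT and 4.09 ± 0.10 in KO-LysM SAT (SD, n = 4 arrays).

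Array spread moved with this comparison. The interquartile range was 2.12 to 2.29 on WT SAT arrays and 2.37 to 2.63 on KO-LysM SAT arrays. These ranges do not overlap, so spread and genotype cannot be fully told apart here. With the interquartile range of each array as a term in the model, 4 chains were called, 0 higher and 4 lower. The changes of Col5a2, Col4a2 and Col4a1 then turned to −0.08, −0.16 and −0.06, that of Col2a1 was −0.21 (adjusted p = 0.595), and that of Col1a1 was −1.20. Without WT SAT pool 4, which was the lowest of the 8 arrays compared here for Col5a2, Col4a1, Col4a2, Col6a1 and Col6a3, 5 chains were called and the changes of Col5a2, Col4a2 and Col4a1 were 0.82, 0.53 and 0.33. Over the fits that left out 1 array the adjusted p was at most 0.0442 for Col5a2, 0.0983 for Col4a1, 0.0856 for Col4a2 and 0.109 for Col1a1, so that each but Col5a2 lost its call in some of them. On day 1 alone (2 arrays a group) 0 chains were called, and on day 2 alone 11; Col5a2 changed by 0.65 and 1.73 on these days, Col1a1 by −0.62 and −0.43. Stromal markers moved as well, 5 of 10 higher and 2 of 10 lower, and 4 of 8 endothelial markers were higher. The 6 skeletal muscle genes and the 4 genes of subcutaneous position were all lower, and the 6 seminal vesicle genes all higher. The part of these markers in the result was not tested.

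**Figure D3:**
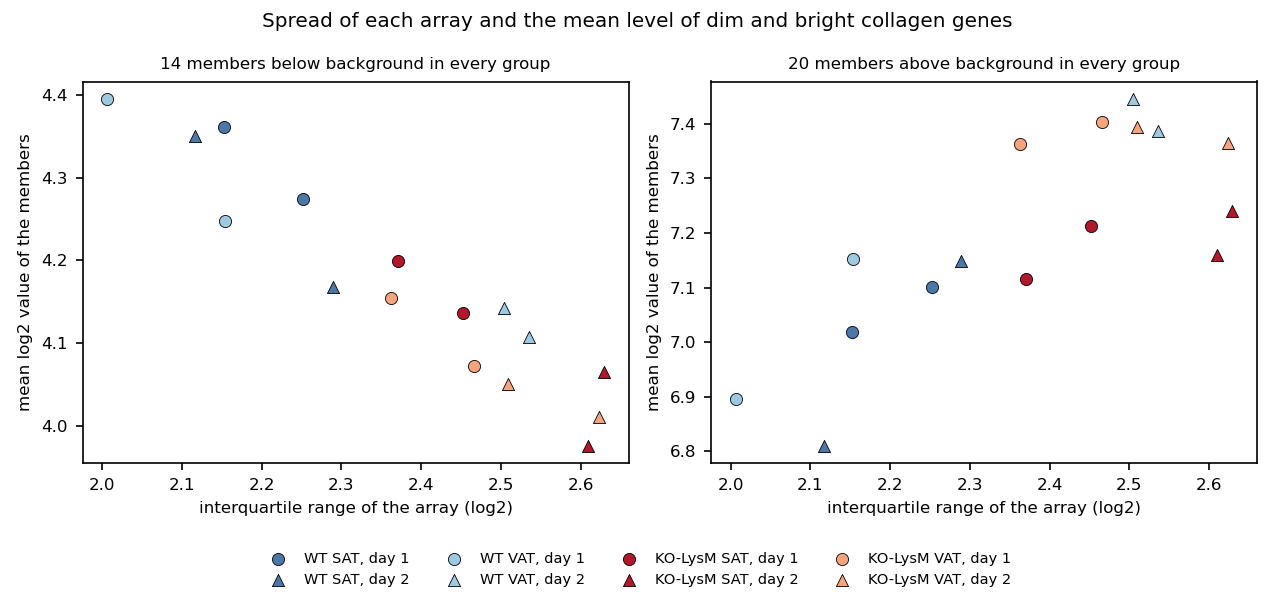
Each point is 1 of the 16 arrays; the x axis is the interquartile range of all its values (log2 units) and the y axis the mean log2 value of the 14 collagen chains below background in every group (left) or of the 20 above it in every group (right). Arrays of smaller spread, which are those of WT SAT and the day 1 pools of WT VAT, mostly had higher values for the dim chains and lower values for the bright ones.

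The second comparison set KO-LysM VAT against WT VAT, where genotype and depot likewise cannot be told apart. Col3a1, the collagen III chain, and Col12a1, the partner of collagen I fibrils, were higher in KO-LysM VAT than in WT VAT. Of the 42 chains 4 rose, against 10.2% of all genes, and 5 fell, against 5.76% of all genes (15.9% in either direction); the median change was −0.13 for the chains and −0.05 for all genes. Col3a1 rose by 0.90 ± 0.19 (1.86-fold; adjusted p = 0.00809), Col5a3 by 0.72 ± 0.23 (adjusted p = 0.0478), Col12a1 by 0.58 ± 0.13 (adjusted p = 0.00920) and Col17a1 by 0.44 ± 0.10 (adjusted p = 0.0104). Arrays of the groups did not overlap for Col12a1 and Col17a1 and overlapped for Col3a1 and Col5a3. For Col17a1 only 1 of the 4 WT VAT arrays was above background.

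With pool number as a block 5 chains were called, 3 higher and 2 lower, and Col5a3 lost its call (adjusted p = 0.0733). The falls were in Col25a1 (−0.64 ± 0.18, adjusted p = 0.0328), Col9a3 (−0.39 ± 0.12, 0.0429), Col27a1 (−0.38 ± 0.12, 0.0448), Col19a1 (−0.35 ± 0.11, 0.0475) and Col9a2 (−0.28 ± 0.08, 0.0401). With the block, Col9a3, Col27a1, Col19a1 and Col9a2 lost their calls (adjusted p = 0.0663, 0.0663, 0.0675 and 0.0576). Col9a2 was below background on all arrays of both groups, and Col19a1 on all KO-LysM VAT arrays. Among the chains followed throughout, Col1a1 changed by 0.29 ± 0.19 (adjusted p = 0.278), Col4a1 by 0.31 ± 0.15 (0.146), Col4a2 by 0.30 ± 0.27 (0.430), Col6a1 by 0.58 ± 0.28 (0.155) and Col6a3 by 0.96 ± 0.43 (0.127). Col1a2 changed by −0.13 ± 0.11 (0.413) and Col6a2 by 0.05 ± 0.12 (0.769). None of these 7 passed, and their standard errors were of the size of the changes or not far below it for Col1a1, Col4a2, Col1a2 and Col6a2.

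The days differed. On day 1 alone 17 chains were called (11 higher, 6 lower) and on day 2 alone 0, and the change of Col3a1 was 1.25 and 0.55, that of Col1a1 0.72 and −0.15, that of Col5a3 1.25 and 0.20, and that of Col12a1 0.72 and 0.44 on the respective days. Leaving out single arrays gave 3 chains (without WT VAT pool 1) to 11 (without WT VAT pool 3); Col3a1, Col12a1 and Col17a1 passed in each of these fits (adjusted p at most 0.0287, 0.0374 and 0.0320), whereas Col5a3 and the 5 falls did not (Col5a3 at most 0.147). With array spread as a term 3 chains were called, Col3a1 changed by 0.55 (adjusted p = 0.0473) and Col12a1 by 0.41 (adjusted p = 0.0545). Beside these, 1 of 10 stromal markers was higher, 3 of 10 macrophage markers lower, 5 of 6 muscle genes higher and 3 of 4 keratinocyte markers higher in KO-LysM VAT. Of the genes of subcutaneous position 3 of 4 were higher. The 2 genes of visceral position, below background in every group, were called lower. The part of these markers in the result was not tested.

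**Figure D4:**
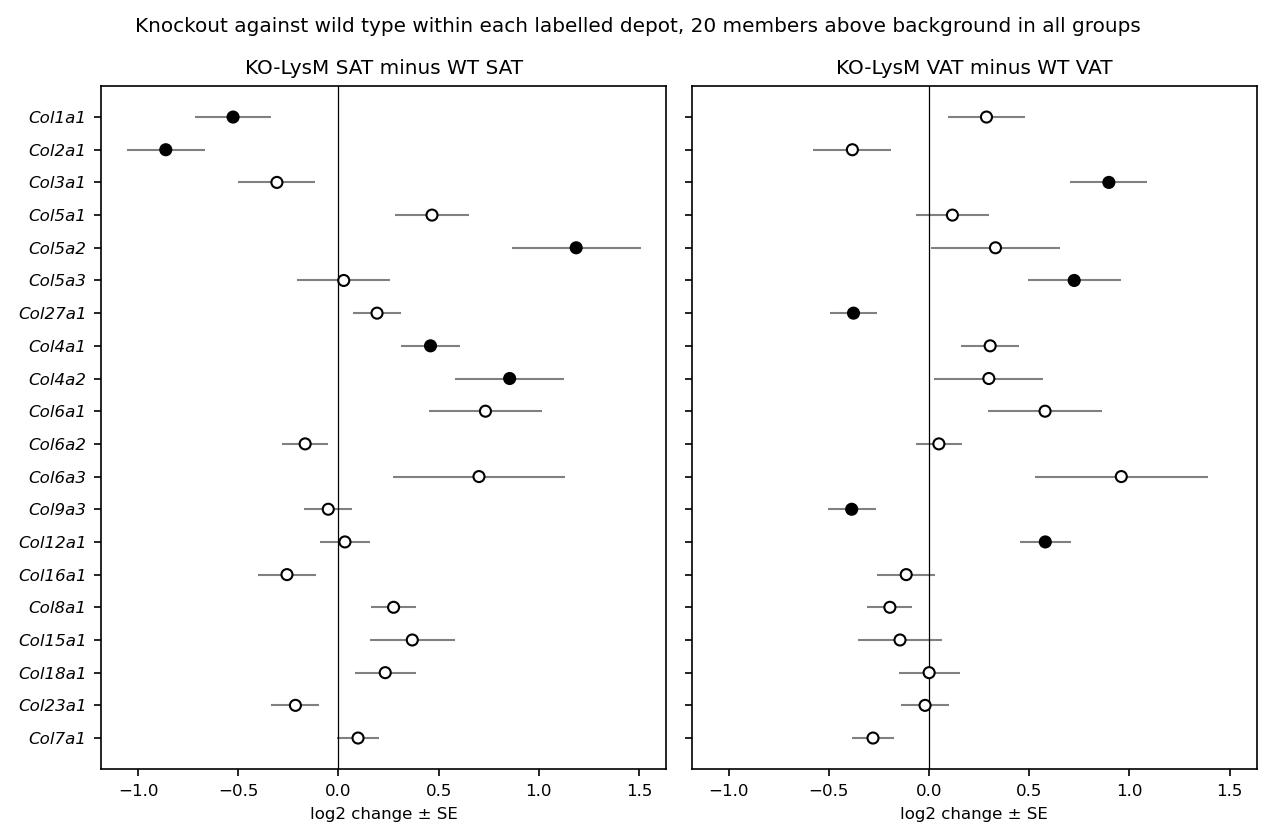
Log2 change with its standard error (x axis) of KO-LysM against WT in the arrays labelled SAT (left) and VAT (right) for the 20 collagen chains above background in all groups (y axis); filled points passed an adjusted p of 0.05 (limma, over 17097 genes, n = 4 a group). Col5a2, Col4a2 and Col4a1 passed as higher on the left, and Col3a1, Col5a3 and Col12a1 on the right.

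By the labels, the difference of KO-LysM from WT itself differed between the depots for 2 chains. Of all genes, 2.10% were called higher, 2.12% lower and 4.22% in either direction. Among the chains called, 0 of the 42 had the opposite sign (8 of 42 had an unadjusted p under 0.05 in limma). Tissue markers went against the depot labels of KO-LysM. Here and below, a knockout effect that differs between depots therefore cannot be told apart from a mismatch of those labels. For Col3a1 the effect in VAT exceeded that in SAT by 1.20 ± 0.27 (adjusted p = 0.0178), made up of 0.90 in VAT and −0.31 in SAT. For Col17a1 the difference was 0.59 ± 0.14 (adjusted p = 0.0241), but 3 of its 4 group means lay below background, so that its size depends on values below background. Col1a1 pointed the same way with 0.81 ± 0.27 and did not pass (adjusted p = 0.131). The differences of Col4a2 (−0.56 ± 0.39, 0.635), Col4a1 (−0.15 ± 0.21, 0.862), Col6a1 (−0.15 ± 0.40, 0.941), Col6a2 (0.22 ± 0.16, 0.685), Col6a3 (0.26 ± 0.61, 0.932) and Col1a2 (−0.01 ± 0.16, 0.988) did not pass either. The Col3a1 difference passed on each day alone (1.56 and 0.85, adjusted p = 0.0246 and 0.0233) and without any 1 array (0.98 to 1.38, adjusted p at most 0.0474), and was lost without the day term (adjusted p = 0.0639). That of Col17a1 was lost without WT SAT pool 3, WT VAT pool 2, KO-LysM SAT pool 1 or 4, or KO-LysM VAT pool 2 or 4 (adjusted p up to 0.0623). The Col17a1 difference was also lost on each day alone, and over all alternatives its adjusted p reached 0.156. After quantile normalization of the deposited values 4 chains were called, 3 higher and 1 lower.

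Within wild type, VAT against SAT gave no collagen chain past the threshold. Of the 42, 0 were called by limma, with 10 at an unadjusted p under 0.05, against 2.84% of all genes called (1.52% higher, 1.32% lower); the median change was 0.03 for the chains and −0.02 for all genes. Changes were 0.71 ± 0.28 for Col6a1 (adjusted p = 0.242), 0.63 ± 0.27 for Col4a2 (0.294), 0.37 ± 0.15 for Col4a1 (0.236), 0.21 ± 0.43 for Col6a3 (0.883) and 0.17 ± 0.11 for Col1a2 (0.552). For Col6a2 (0.06 ± 0.12, 0.874), Col3a1 (−0.02 ± 0.19, 0.975) and Col1a1 (−0.09 ± 0.19, 0.879) the estimates were close to 0.

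This absence of calls joined 2 days that went apart. On day 1 the change was −0.69 for Col1a1, −0.55 for Col3a1 and −0.80 for Col6a3, none past the threshold, and 0 of 42 chains were called; on day 2 it was 0.51 for Col1a1 (adjusted p = 0.0218), 0.51 for Col3a1 (0.0246) and 1.21 for Col6a3 (0.0757), and 11 chains were called, 8 higher and 3 lower. Col4a1, Col4a2 and Col6a1 changed by 0.01, −0.02 and 0.05 on day 1 and by 0.73, 1.27 and 1.37 on day 2 (adjusted p = 0.0168, 0.0280 and 0.0262). Each day has 2 arrays a group, and the array spread of WT VAT differed between the days, so that day and spread cannot be told apart in that group. Without WT VAT pool 1, 7 chains were called.

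In the knockout, arrays labelled VAT gave higher values than those labelled SAT for the collagen I and III genes Col1a1 and Col3a1. The direction rests on the KO-LysM depot labels, which tissue markers went against, and would turn if those labels were exchanged. Of the 42 chains 4 rose, against 1.92% of all genes, and 0 fell, against 2.39% of all genes (4.32% in either direction); 7 had an unadjusted p under 0.05 in limma, and the median change was 0.01 for the chains and 0.00 for all genes. Col3a1 rose by 1.18 ± 0.19 (2.27-fold; adjusted p = 0.00205), Col1a1 by 0.72 ± 0.19 (adjusted p = 0.0455), Col12a1 by 0.59 ± 0.13 (adjusted p = 0.0131) and Col17a1 by 0.43 ± 0.10 (adjusted p = 0.0207), with no overlap of arrays in any of the 4. No KO-LysM SAT array was above background for Col17a1, so that its rise is bounded as at least 1.17-fold against the background level. The share called higher, 4 of 42, stood above the background share.

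Col6a2 (0.28 ± 0.12, adjusted p = 0.283), Col6a1 (0.56 ± 0.28, 0.456), Col6a3 (0.46 ± 0.43, 0.877), Col4a1 (0.22 ± 0.15, 0.693), Col4a2 (0.07 ± 0.27, 1.00) and Col1a2 (0.16 ± 0.11, 0.744) did not pass. Col5a3 changed by 0.59 on both of its probe sets, ± 0.23 on the one that stands for the gene and ± 0.14 on the other. Col3a1 passed under each of the 19 alternatives run for it, on day 1 (1.01) and day 2 (1.35) and with array spread as a term (1.23), and its adjusted p was at most 0.0393. Col1a1 lost its call without any 1 of the 8 arrays compared (0.67 to 0.79, adjusted p up to 0.148) and on day 1 alone (0.64, adjusted p = 0.0724). Its call was also lost without the day term (adjusted p = 0.0646) and with pool number as a block (adjusted p = 0.0855). Col12a1 lost its call without KO-LysM SAT pool 2 or 3 or KO-LysM VAT pool 1 (adjusted p up to 0.0596). It was lost too without the day term and on each day alone. Col17a1 lost its call without KO-LysM SAT pool 1, 2 or 4 or KO-LysM VAT pool 2 or 4 (up to 0.0755), and on each day alone. Over all alternatives the adjusted p in limma reached 0.274 for Col12a1 and 0.392 for Col17a1.

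Beside these rises, 1 of 10 stromal markers was higher and 0 lower in KO-LysM VAT than in KO-LysM SAT, 5 of 10 macrophage markers were lower, 3 of 4 keratinocyte and 5 of 6 muscle genes were higher and the 6 seminal vesicle genes lower; their part in the result was not tested. The sequences before the starts of Col3a1 and Col5a3 are shown because these 2 fibrillar chains rose together in KO-LysM VAT against WT VAT and are in the RefSeq promoter table (GRCm38.p6). Each is the 200 bases before the start site, 5′ to 3′ on the gene's strand, from chr1:45311338-45311537 (plus strand) for Col3a1 and chr9:20815068-20815267 (minus strand) for Col5a3; capitals mark the letters TATAAA (known as the TATA box), the letters CCAAT (the box of that name) or those of the GC box given above for Col4a1, searched on both strands.
Col3a1: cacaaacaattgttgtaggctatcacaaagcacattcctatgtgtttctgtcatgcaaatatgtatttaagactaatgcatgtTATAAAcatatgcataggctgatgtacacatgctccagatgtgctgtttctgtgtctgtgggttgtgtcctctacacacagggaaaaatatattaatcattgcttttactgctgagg
Col5a3: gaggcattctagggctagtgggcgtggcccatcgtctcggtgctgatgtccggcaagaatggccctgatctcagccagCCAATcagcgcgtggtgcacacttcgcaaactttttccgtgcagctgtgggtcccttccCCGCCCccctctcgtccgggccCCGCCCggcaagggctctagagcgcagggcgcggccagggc

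The 2 windows had little in common. That of Col3a1 had 37.5% G and C and 1 match, TATAAA starting 117 bases before the start; that of Col5a3 had 67.0% G and C, with CCAAT 122 bases before the start and GC boxes on the opposite strand starting 63 and 41 bases before it. In the 250 bases before the start, a GC box stood in 58.3% of 36 windows of collagen chains (33 of the 42 chains are in the table) against 32.7% of 32851 windows, CCAAT in 36.1% against 33.8%, and TATAAA in 13.9% against 12.4%. Such matches are letters in a window and not tested sites. On the minus strand the RefSeq gene record of Col5a3 begins at base 20815117, inside its window.

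Setting the labels across each other changed which chains were called. KO-LysM VAT minus WT SAT had 10 chains higher (23.8%), against 18.3% of all genes, and 9 lower (21.4%), against 21.0%. In either direction 45.2% of the chains and 39.3% of all genes were called, with median changes of −0.03 and −0.08. The share that fell was close to that of all genes, and the share that rose was somewhat above it. The rises were the 3 collagen V chains (Col5a2 1.36 ± 0.32, Col5a3 0.62 ± 0.23, Col5a1 0.51 ± 0.18), Col6a1 (1.29 ± 0.28), Col6a3 (1.17 ± 0.43), Col4a2 (0.93 ± 0.27), Col3a1 (0.87 ± 0.19), Col4a1 (0.67 ± 0.15), Col12a1 (0.62 ± 0.13) and Col17a1 (0.28 ± 0.10), with adjusted p from 0.00265 for Col12a1 to 0.0482 for Col5a3. Changes of Col1a1 (0.19 ± 0.19, adjusted p = 0.415), Col6a2 (0.11 ± 0.12, 0.447) and Col1a2 (0.04 ± 0.11, 0.795) did not pass. Col2a1 fell by 0.83 ± 0.19 on the log2 scale (adjusted p = 0.00568), and the 8 other falls, between −0.61 for Col25a1 and −0.25 for Col24a1, were in chains with a mean near or below background in KO-LysM VAT. With array spread as a term 1 of the 42 was called, a fall. Spread did not overlap between these groups either, so spread and group cannot be fully told apart. Cell type markers moved too: 9 of 10 macrophage markers and the 6 skeletal muscle genes were lower. Of the stromal markers 4 of 10 were higher, and of the endothelial markers 2 of 8. The part of these markers in the result was not tested. Without WT SAT pool 4 there were 9 chains called. Among the rises, calls were lost without single arrays by Col6a3, Col5a3 and Col17a1 (adjusted p up to 0.167, 0.180 and 0.0901). Col4a2 lost its call without WT SAT pool 4 (0.0502). Col5a1 lost its call without WT SAT pool 1, 3 or 4 or KO-LysM VAT pool 1, 2 or 4. Among the falls, Col13a1, Col22a1, Col25a1, Col26a1 and Col9a2 lost theirs without single arrays.

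KO-LysM SAT minus WT VAT had 0 of 42 chains called, with 8 at an unadjusted p under 0.05 in limma, against 4.71% of all genes higher, 2.18% lower and 6.89% in either direction (median −0.09 for the chains, −0.03 for all genes). Col1a1 changed by −0.43 ± 0.19 (adjusted p = 0.132), Col3a1 by −0.28 ± 0.19 (0.297), Col6a3 by 0.49 ± 0.43 (0.418), Col4a2 by 0.22 ± 0.27 (0.563), Col4a1 by 0.09 ± 0.15 (0.669) and Col6a1 by 0.02 ± 0.28 (0.962). Col1a2 changed by −0.28 ± 0.11 (0.104) and Col6a2 by −0.23 ± 0.12 (0.181). Without WT VAT pool 4, 4 chains were called. These cross comparisons were chosen after the marker genes had been seen.

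The genes that make, assemble, degrade or sense collagen were followed as 4 lists. Of 27 measured genes of collagen maturation, which hydroxylate, fold, trim and cross-link the chains, 6 rose and 2 fell in KO-LysM SAT against WT SAT, 2 rose in KO-LysM VAT against WT VAT, 1 rose in WT VAT against WT SAT and 3 rose in KO-LysM VAT against KO-LysM SAT. The medians in these comparisons were 0.19, 0.11, 0.18 and 0.03, where all genes had −0.05, −0.05, −0.02 and 0.00. Of all genes, 16.7% were higher and 20.0% lower in the first of these, 10.2% and 5.76% in the second, 1.52% and 1.32% in the third and 1.92% and 2.39% in the last, and the counts of all 4 lists are to be read against these shares. Plod2, which hydroxylates lysines of the chain ends for cross-linking, had values of 7.66, 7.73, 7.64 and 6.69 in WT SAT and 8.04, 8.65, 9.69 and 8.93 for WT VAT. The KO-LysM arrays gave 9.32, 8.46, 9.002 and 9.07 under the SAT label and 8.59, 8.29, 8.38 and 8.21 under the VAT label. It rose by 1.53 ± 0.30 in KO-LysM SAT relative to WT SAT (adjusted p = 0.00291). In WT VAT relative to WT SAT it rose by 1.40 ± 0.30 (adjusted p = 0.0210). In KO-LysM SAT relative to WT SAT, Crtap, part of the prolyl 3-hydroxylation complex, rose by 0.86 ± 0.19. P4ha3, a prolyl 4-hydroxylase subunit, fell in that same comparison, to below background on all KO-LysM SAT arrays (at least 1.26-fold lower).

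Pcolce, which speeds the removal of the C-terminal propeptide of fibrillar collagens, was lowest in KO-LysM SAT and highest in KO-LysM VAT by group mean. Its values were 5.73, 6.03, 6.17 and 5.67 in WT SAT and 5.25, 5.40, 5.79 and 5.75 for WT VAT. In KO-LysM mice the SAT pools had 5.44, 5.01, 5.46 and 5.37 and the VAT pools 6.47, 6.43, 6.54 and 6.35, the last above every other array. It fell by 0.58 ± 0.13 in KO-LysM SAT relative to WT SAT (adjusted p = 0.00589), rose by 0.90 ± 0.13 in KO-LysM VAT against WT VAT (adjusted p = 0.000672) and by 1.13 ± 0.13 in KO-LysM VAT against KO-LysM SAT (adjusted p = 0.000103), and the knockout effects differed by 1.48 ± 0.19 (adjusted p = 0.000176). Tll1, one of the proteinases that remove that propeptide, was below background in 3 groups, at 3.24 to 3.88, and lay at 5.49, 4.50, 5.58 and 5.55 in KO-LysM VAT, 1 of these 4 also below background. It passed against WT VAT (adjusted p = 0.000139) with a rise of at least 1.41-fold, set against the background level because none of the WT VAT arrays exceeded it.

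Fibril and basement membrane partners, the proteoglycans, laminins and glycoproteins that bind collagen, rose in the comparison in which Col4a1, Col4a2 and Col5a2 rose. Of 13 measured, 11 rose and 1 fell in KO-LysM SAT against WT SAT (median 0.75, all genes −0.05; 16.7% of all genes higher), 7 rose in WT VAT against WT SAT (median 0.60, all genes −0.02; 1.52% higher), 4 fell in KO-LysM VAT against WT VAT (median 0.04) and 1 fell in KO-LysM VAT against KO-LysM SAT (median 0.00). Lamb1, the laminin beta-1 chain of basement membranes, had values of 6.94, 7.20, 6.82 and 6.36 in WT SAT and 7.45, 8.10, 8.82 and 8.41 for WT VAT. On the arrays labelled KO-LysM SAT the values were 8.57, 7.67, 8.22 and 8.45, and KO-LysM VAT gave 7.44, 7.41, 7.16 and 7.15. WT VAT and KO-LysM SAT were thus the high groups. Lamb1 rose by 1.39 ± 0.26 in KO-LysM SAT against WT SAT and fell by 0.91 ± 0.26 in KO-LysM VAT against WT VAT (adjusted p = 0.00223 and 0.0318).

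Bgn, the small proteoglycan biglycan, showed the same order, at 8.30 to 9.40 in WT SAT, 9.63 to 10.49 in WT VAT, 9.83 to 10.22 in KO-LysM SAT and 9.14 to 9.29 in KO-LysM VAT, and its knockout effect differed between the labelled depots by −1.90 ± 0.28 (adjusted p = 0.000756). Lama2, a laminin chain, rose by 0.81 ± 0.11 in WT VAT against WT SAT (adjusted p = 0.000678). Lum, the fibril proteoglycan lumican, rose there by at least 1.11-fold (adjusted p = 0.0205), a bound because no WT SAT array was above background. Stromal markers moved with the list, 5 of 10 higher and 2 lower in KO-LysM SAT and 3 higher and 1 lower in WT VAT, each against WT SAT. Of 8 endothelial markers 4 were higher in KO-LysM SAT and 0 were called in WT VAT (3 at an unadjusted p under 0.05 in limma). Array spread moved with the WT SAT comparisons too, and the part of each in the list's change was not tested.

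Of 15 genes of collagen breakdown and uptake, 4 rose and 2 fell in KO-LysM SAT against WT SAT (36.7% of all genes were called there), 4 rose and 1 fell in KO-LysM VAT against WT VAT, 2 fell in WT VAT against WT SAT and 2 rose in KO-LysM VAT against KO-LysM SAT (medians 0.23, 0.37, −0.04 and 0.04). Mmp3, the matrix-degrading proteinase stromelysin-1, had values of 8.71, 8.70, 8.48 and 8.34 in WT SAT and 7.29, 7.79, 8.39 and 6.92 for WT VAT. KO-LysM SAT followed with 7.98, 7.32, 7.04 and 7.69, and KO-LysM VAT with 9.74, 9.54, 9.50 and 9.47. It fell by 1.05 ± 0.25 in KO-LysM SAT against WT SAT (adjusted p = 0.00802) and rose by 1.96 ± 0.25 in KO-LysM VAT against WT VAT (adjusted p = 0.000256). Ctsk, cathepsin K, which cuts the collagen helix, went the same way, by −0.44 ± 0.14 and 0.82 ± 0.14 (adjusted p = 0.0235 and 0.00168). Mmp13, a collagenase, was lowest in WT VAT by group mean (4.41 to 5.39, against 5.23 to 6.65 on the other arrays) and rose by 1.10 ± 0.16 in KO-LysM VAT against WT VAT (adjusted p = 0.000600). Timp3, a matrix-bound inhibitor of these proteinases, rose by 1.73 ± 0.31 in KO-LysM SAT against WT SAT (adjusted p = 0.00174).

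**Figure D5:**
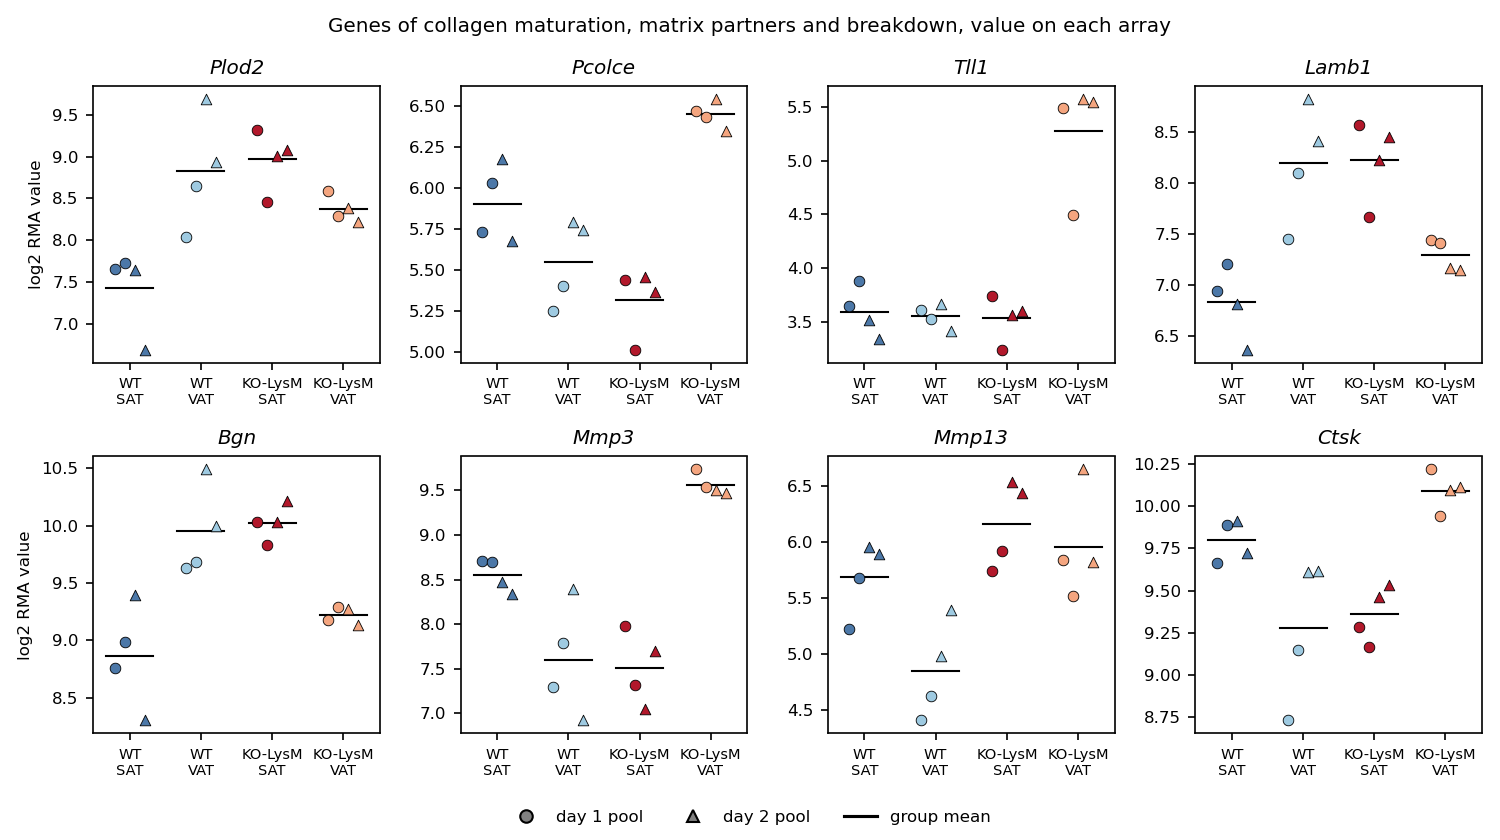
Log2 value (y axis, which differs between panels and does not start at 0) on each array of 8 genes of collagen maturation (Plod2, Pcolce, Tll1), matrix partners (Lamb1, Bgn) and breakdown (Mmp3, Mmp13, Ctsk); circles are day 1 pools, triangles day 2 pools and lines the means of 4 pools. Pcolce, Tll1 and Mmp3 were highest in KO-LysM VAT, and Lamb1 and Bgn were higher in WT VAT and KO-LysM SAT than in the other groups by their means.

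Of 8 collagen receptors measured, 1 rose and 2 fell in KO-LysM SAT against WT SAT, a share near the 36.7% of all genes called, 1 fell in KO-LysM VAT against WT VAT (15.9% of all genes called), and 0 were called in either comparison of VAT with SAT (2 and 0 at an unadjusted p under 0.05 in limma, in wild type and knockout). Itgb1, the beta-1 subunit shared by the collagen-binding integrins, rose by 0.47 ± 0.13 (adjusted p = 0.0156), and the inhibitory receptor Lair1 and the platelet receptor Gp6 were called lower (adjusted p = 0.00594 and 0.00715), in KO-LysM SAT against WT SAT. Lair1 lay below background in every group, at 3.86 to 4.64, which leaves no fold. Gp6 lay at 4.20 to 5.50 and above background on no KO-LysM SAT array, which makes its fall at least 1.2-fold.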

How the data were processed

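Expression was measured on 16 arrays, and the authors deposited log2 values; the submitters' processing notes name RMA and affy; versions, background settings and slides are not given in the sources used here, so the background correction was not varied. The table held 45141 probe sets, of which 104 controls were left out. The probe-to-gene table listed 29449: 28898 had 1 gene, 551 had several and were not named, and 15588 had none. Gene identifiers of 28689 matched a RefSeq table (GRCm38.p6), with 0 symbols changed. The probe set of highest mean stood for each of 17097 genes. Comparisons used limma 3.58.1 under R 4.3.3, by lmFit followed by eBayes, on all 16 arrays with day as a term, two-sided, with Benjamini-Hochberg adjustment over 17097 genes and a threshold of 0.05; the scripts were tested on simulated data. Day is the day the labels give for each pool, and with 4 arrays in a group their number bounds the precision.

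The members, lists and named genes were chosen with earlier results of these data known. Named are every member called in a comparison, 8 chains followed in every comparison (Col1a1, Col1a2, Col3a1, Col4a1, Col4a2, Col6a1, Col6a2 and Col6a3) and up to 4 genes of smallest p in a list. As alternatives, day was dropped, the days were fitted separately, pool number served as replicate block, the fit was cut to the groups compared, and further fits left out dim genes or took the mean over probe sets, quantile normalization, array spread as a term, array weights and arrays left out; leaving out the 2 arrays of smallest spread and the cross comparisons were added after seeing the data. Promoter sequences were found for 33 of the 42 members. Same-numbered pools share a day by the labels. Their deviations from the group means correlated above 0.1 in 12 of 16 pairs (−0.48 to 0.59), and in every pair of KO-LysM VAT with WT VAT and with KO-LysM SAT, where values with pool number as a block stand beside the results; within days the correlations were −0.31 to 0.38. Where no array of a group exceeded background, a fold is a bound against the background level.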

Additional observations from a re-analysis of the deposited data

Results flagged for a closer look

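The level of Col2a1 on the array of KO-LysM SAT pool 1 was 6.18, apart from the other 3 arrays of its group, the nearest of which was at 5.73. Col6a2 on the array of WT VAT pool 4 was 7.09, where the nearest of its group was at 6.70. These were 2 of 72 groups of 4 arrays examined (18 genes in 4 groups), and chance marks about 1 group in 20. For Col3a1 the difference of KO-LysM from WT was higher under the VAT label than under the SAT label by 1.20 (limma interaction, adjusted p = 0.0178). For Col17a1 it was higher by 0.59 (adjusted p = 0.0241). Neither can be told apart from a mismatch of the KO-LysM depot labels.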

How the results depend on the processing

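Alternatives were run for 79 named changes, 1540 in all: 1160 kept direction and side of the threshold, 281 lost the threshold, 35 gained it and 64 turned sign (20 of them with array spread as a term, 22 with an array left out); the cause was not tested. Counts below are of all genes called, then of collagen chains, and the main counts were 6279 and 12 for KO-LysM SAT minus WT SAT, 2724 and 9 for KO-LysM VAT minus WT VAT, 486 and 0 for WT VAT minus WT SAT, 738 and 4 for KO-LysM VAT minus KO-LysM SAT, 722 and 2 for the interaction, 6717 and 19 for KO-LysM VAT minus WT SAT and 1178 and 0 for KO-LysM SAT minus WT VAT. In this order, array spread as a term gave 1308 and 4, 3 chains, 1502 and 2, 1968 genes, 1694 and 6, 1859 and 1, and 656 and 3. Array weights gave 3 chains in KO-LysM VAT minus WT VAT, 1 chain in WT VAT minus WT SAT, 2203 and 7 in KO-LysM VAT minus KO-LysM SAT, 1209 and 4 in the interaction and 616 genes in KO-LysM SAT minus WT VAT. Day 1 alone gave, in the same order, 582 and 0, 5376 and 17, 199 genes, 262 and 1, 330 and 3, 1702 and 5, and 4017 and 4. Day 2 alone gave 331 and 0 in KO-LysM VAT minus WT VAT, 4222 and 11 in WT VAT minus WT SAT, 199 and 2 in KO-LysM VAT minus KO-LysM SAT, 1904 and 5 in the interaction, and 18 and 1 in KO-LysM SAT minus WT VAT. Without a day term there were 3563 genes, 986 and 3, 212 genes, 422 and 2, 455 and 1, 4426 genes and 51 genes. With only the compared groups there were 1238 and 2 in KO-LysM VAT minus WT VAT, 60 genes in WT VAT minus WT SAT, 2047 and 8 in KO-LysM VAT minus KO-LysM SAT and 205 genes in KO-LysM SAT minus WT VAT. With dim genes left out there were 4047 and 7 in KO-LysM SAT minus WT SAT, 1 chain in the interaction and 11 in KO-LysM VAT minus WT SAT, where fewer genes were tested. The mean over probe sets gave 4 chains in the interaction and 2 in KO-LysM SAT minus WT VAT. Quantile normalization gave 1148 and 3 in WT VAT minus WT SAT, 1111 genes in KO-LysM VAT minus KO-LysM SAT, 4 chains in the interaction and 2 in KO-LysM SAT minus WT VAT. Without the 2 arrays of smallest spread there were 5 chains in KO-LysM VAT minus WT VAT, 1038 and 2 in WT VAT minus WT SAT, 1341 genes in KO-LysM VAT minus KO-LysM SAT and 1139 genes in the interaction.

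Pool number as replicate block gave 10, 5, 0, 3, 2, 17 and 0 chains in the same order, and 645 genes in KO-LysM SAT minus WT VAT; beside the calls lost that are given with the results, it ended those of Col1a1 and Col25a1 in KO-LysM SAT minus WT SAT (adjusted p = 0.0646 and 0.0547) and of Col5a1 and Col5a3 in KO-LysM VAT minus WT SAT (0.0575 and 0.0713), and no other call of a named chain.

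Leaving out 1 array at a time gave 3071 to 7386 genes and 5 to 13 chains in KO-LysM SAT minus WT SAT, 1115 to 4007 and 3 to 11 in KO-LysM VAT minus WT VAT, 231 to 1711 and 0 to 7 in WT VAT minus WT SAT, 461 to 562 and 1 to 3 in KO-LysM VAT minus KO-LysM SAT, 546 to 1310 and 1 to 3 in the interaction, 3851 to 7563 and 9 to 21 in KO-LysM VAT minus WT SAT, and 177 to 3388 and 0 to 4 in KO-LysM SAT minus WT VAT. Signs turned for Col6a2 (−0.019 to 0.13) in KO-LysM VAT minus WT VAT, for Col3a1 (−0.20 to 0.20), Col1a1 (−0.26 to 0.060), Col6a2 (−0.024 to 0.16) and Col6a3 (−0.25 to 0.74) in WT VAT minus WT SAT, and for Col1a2 (−0.11 to 0.058), Col6a1 (−0.43 to 0.18) and Col6a3 (−0.27 to 0.71) in the interaction.

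With array spread as a term, KO-LysM SAT minus WT SAT turned to 0.060 for Col1a2, −0.057 for Col4a1, −0.16 for Col4a2, −0.25 for Col6a1, −0.95 for Col6a3, 0.14 for Col25a1, 0.072 for Col26a1 and −0.083 for Col5a2. KO-LysM VAT minus WT VAT turned to −0.13 for Col1a1, −0.0091 for Col4a1, −0.32 for Col4a2, −0.020 for Col6a1 and −0.046 for Col6a3, WT VAT minus WT SAT to −0.31 for Col6a3, the interaction to 0.048 for Col4a1 and 0.23 for Col6a1, and KO-LysM VAT minus WT SAT to 0.042 for Col26a1, −0.0053 for Col4a2, −0.12 for Col5a3 and −0.35 for Col6a3. Array weights turned WT VAT minus WT SAT to 0.0013 for Col1a1, 0.16 for Col3a1 and −0.0081 for Col6a2. On day 1 alone KO-LysM SAT minus WT SAT was 0.029 for Col6a2, WT VAT minus WT SAT was −0.015 for Col4a2 and −0.80 for Col6a3, and the interaction was 0.12 for Col1a2, 0.31 for Col4a1, 0.069 for Col4a2 and 0.66 for Col6a1. On day 2 alone KO-LysM SAT minus WT SAT was 0.018 for Col1a2, KO-LysM VAT minus WT VAT was −0.15 for Col1a1, −0.11 for Col4a2, −0.023 for Col6a1 and −0.030 for Col6a2, WT VAT minus WT SAT was 0.51 for Col1a1, 0.51 for Col3a1 and −0.043 for Col6a2, and the interaction was −0.90 for Col6a3. After quantile normalization Col6a2 was −0.12 in KO-LysM VAT minus WT VAT and −0.0099 in WT VAT minus WT SAT, and without the 2 arrays of smallest spread Col3a1 was 0.18 in the latter. A signal near background limits what the dim chains can show.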
